A study of Homo sapiens with 3 samples.

Results

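Readthrough genes are loci that the annotation names after a pair of neighbours, such as NME1-NME2, because their RNAs run from the upstream gene into the downstream gene on the same strand. They were taken from the abundance table of untreated HEK293T cells by name alone: a symbol of the form A-B, with a single hyphen, counted when A and B were themselves symbols of the table. Of 35880 symbols, 717 carried a single hyphen and 104 met the rule. The 104 readthrough symbols had 206 parent symbols, since BLOC1S5 and RAB4B each served 2 of them, and held 371 of the 185299 transcripts. HEK293T, an established line derived from human embryonic kidney, expresses the large T antigen of the SV40 virus. Cells were grown to 70% confluence in high-glucose medium with 10% serum, and 3 directional libraries of oligo-dT-captured RNA, labelled as biological replicates 1, 2 and 3, were sequenced. These 3 libraries were the only group, with no treated or edited cells beside them. Separate cultures are not mentioned for these replicates, and each p-value reflects no more than the spread among the 3 libraries, which may be technical. Values are in TPM (transcript abundance scaled to a fixed library total), which are normalised per length within each library and so can be compared between symbols.

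The end of a protein-coding gene is normally set by the cleavage and polyadenylation machinery, which recognises AAUAAA or a close variant in the nascent RNA, cuts it and adds the poly(A) tail, after which RNA polymerase II terminates. When cutting fails or is skipped, the polymerase can go on into the next gene, and splicing can then join an exon of the upstream gene to an exon of the downstream gene. Where the reading frame is kept, such an RNA can encode a fusion of both proteins; where it is lost, a stop codon upstream of a later exon junction can make the RNA a target of nonsense-mediated decay (NMD), a surveillance pathway that degrades such RNAs.

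The names were checked against GENCODE release 29 on GRCh38 (hg38). In 103 of the 104 symbols the annotated span overlapped both parents on the same strand, with the parent named first upstream. The exception was BORCS7-ASMT, which lies on chromosome 10 while the parent ASMT in the annotation lies on chromosome X, and it was listed at 0 in all 3 libraries. Of the 103, the parents lay apart in 91 and overlapped in 12. The median gap of the 91 was 6909 bases, from 138 bases in SPECC1L-ADORA2A to 573553 bases in IQCJ-SCHIP1, and that of 12019 other neighbouring coding pairs was 28286 bases. RefSeq (GRCh38.p14) start windows were found for 59 symbols and both of their parents: in 51 the readthrough start lay within 300 bases of the upstream parent's start, and in 0 within 300 bases of the downstream parent's.

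What sets a readthrough RNA apart in sequence is the splice junction between the parents. For 254 transcripts of 95 symbols the annotation joins an exon of the upstream parent directly to an exon of the downstream parent, over an intron with a median length of 17098 bases. Junctions of 10 symbols on which the results below turn are printed 5′ to 3′ from the GENCODE 29 transcripts, with the last 15 bases of the upstream parent's exon in lower case and the first 15 bases of the downstream parent's exon in capitals. The first 3 keep the reading frame of both parents, the next 3 belong to transcripts annotated as NMD targets, the next 2 leave the downstream parent's frame, and the last 2 belong to symbols that were listed at 0 although both parents were expressed.
NME1-NME2: catacaagttggcagGACCATGGCCAACCT
RPS10-NUDT3: accgaattccagtttGTGCTACTCGTGAGC
SYNJ2BP-COX16: agagtgcagcacaggTTGCTGATTGTTGGA
HNRNPUL2-BSCL2: caatacaatcgggatGGACCCTCCATTTTC
ARPC4-TTLL3: gagttccttaagaatGTTTCCCGGTCCTCT
ATP6V1G2-DDX39B: agcaagcagcaggcgACAGGCATTTTCCAA
PMF1-BGLAP: cagcaggcctggcagGTGCGAAGCCCAGCG
CENPS-CORT: tgaaatgtttgcaagCATATGCAGGAAGCG
EEF1E1-BLOC1S5: cttcatcgctttataATCTTGGAGAAATTC
TRIM39-RPP21: tactgggaggtggagGCCGCCCATTGTGTC

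On hg38 the NME1-NME2 junction spans an intron of 5554 bases (chromosome 17, plus strand, from base 51161272 to base 51166827). The RPS10-NUDT3 junction bridges 76396 bases (chromosome 6, minus strand, from base 34418369 to base 34341972). That of SYNJ2BP-COX16 bridges 32946 bases (chromosome 14, minus strand, from base 70375676 to base 70342729). In the NMD group, the HNRNPUL2-BSCL2 intron has 8175 bases (chromosome 11, minus strand, from base 62715500 to base 62707324), the ARPC4-TTLL3 intron 6607 bases (chromosome 3, plus strand, from base 9804013 to base 9810621) and the ATP6V1G2-DDX39B intron 3960 bases (chromosome 6, minus strand, from base 31546109 to base 31542148). The PMF1-BGLAP junction joins exons 6069 bases apart (chromosome 1, plus strand, from base 156236483 to base 156242553), and the CENPS-CORT junction exons 16686 bases apart (chromosome 1, plus strand, from base 10434690 to base 10451377). Of the pair listed at 0, EEF1E1-BLOC1S5 joins exons 27569 bases apart (chromosome 6, minus strand, from base 8090186 to base 8062616) and TRIM39-RPP21 exons 3401 bases apart (chromosome 6, plus strand, from base 30341896 to base 30345298).

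Little sequence sets most readthrough symbols apart from the rest of the table. Transcripts were cut into 31-base words, which were searched in the 167579 transcripts of the table that have a GENCODE 29 sequence. The median readthrough symbol had 32.4% of its words in transcripts of the upstream parent and 52.3% in those of the downstream parent. A median of 5.37% was found in no searched transcript of any other symbol, with a range from 0.599% in ISY1-RAB43 to 68.6% in ZNF670-ZNF695. Words counted as a symbol's own may still occur in the transcripts that were not searched. In 48 symbols under 5% of words were their own in this sense. Of the 30 words that cross the junction, 30 were found in no other symbol for HNRNPUL2-BSCL2, 28 for ARPC4-TTLL3, 27 for RPS10-NUDT3 and 24 for NME1-NME2. The authors' quantification assigned reads to transcripts by compatibility, so each readthrough level rests on how reads from shared exons were divided. The table has a single column of estimated reads, which matches the TPM of replicate 1 and sums to 33184885: the 104 symbols held 17538 of these reads, 37 symbols had at least 100 and 42 had under 20. The part of read sharing in the levels below was not tested.

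As a group the readthrough symbols were expressed at low to moderate levels. Of the 104, 87 were above 0 in at least 1 library, 71 in every library, 58 had a mean of at least 1 TPM and 16 of at least 10 TPM. Tested against 1 TPM with limma on log2(TPM + 0.01), and with Benjamini-Hochberg adjustment over 21990 symbols, 49 were called above it, 22 below it and 16 were undecided, and the remaining 17 were listed at 0 in all 3 libraries. The 49 made up 56.3% of the 87 tested, close to the 58.5% of all symbols tested, and the 22 made up 25.3%, against 33.9% of all symbols tested. The count below 1 TPM fell to 13 when any of replicates 1, 2 or 3 was left out, while the count above stayed at 48 or 49. The parents stood higher: 152 of 206 were called above 1 TPM, 33 below and 8 undecided, and 13 were listed at 0. The median mean level was 1.43 TPM for readthrough symbols, 21.3 TPM for upstream parents and 10.6 TPM for downstream parents, and 6.24 TPM over all protein-coding symbols.

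The summed level of the 104 symbols was 451, 457 and 486 TPM in replicates 1, 2 and 3, or 464 ± 18.8 TPM (SD, n = 3), which is 0.0464% of all TPM. The highest 5 symbols held 34.0% of that sum and the highest 10 held 50.4%. Each library was at times the highest: among the 58 symbols of at least 1 TPM, 25 were highest in replicate 1, 14 in replicate 2 and 19 in replicate 3.

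**Figure D1:**
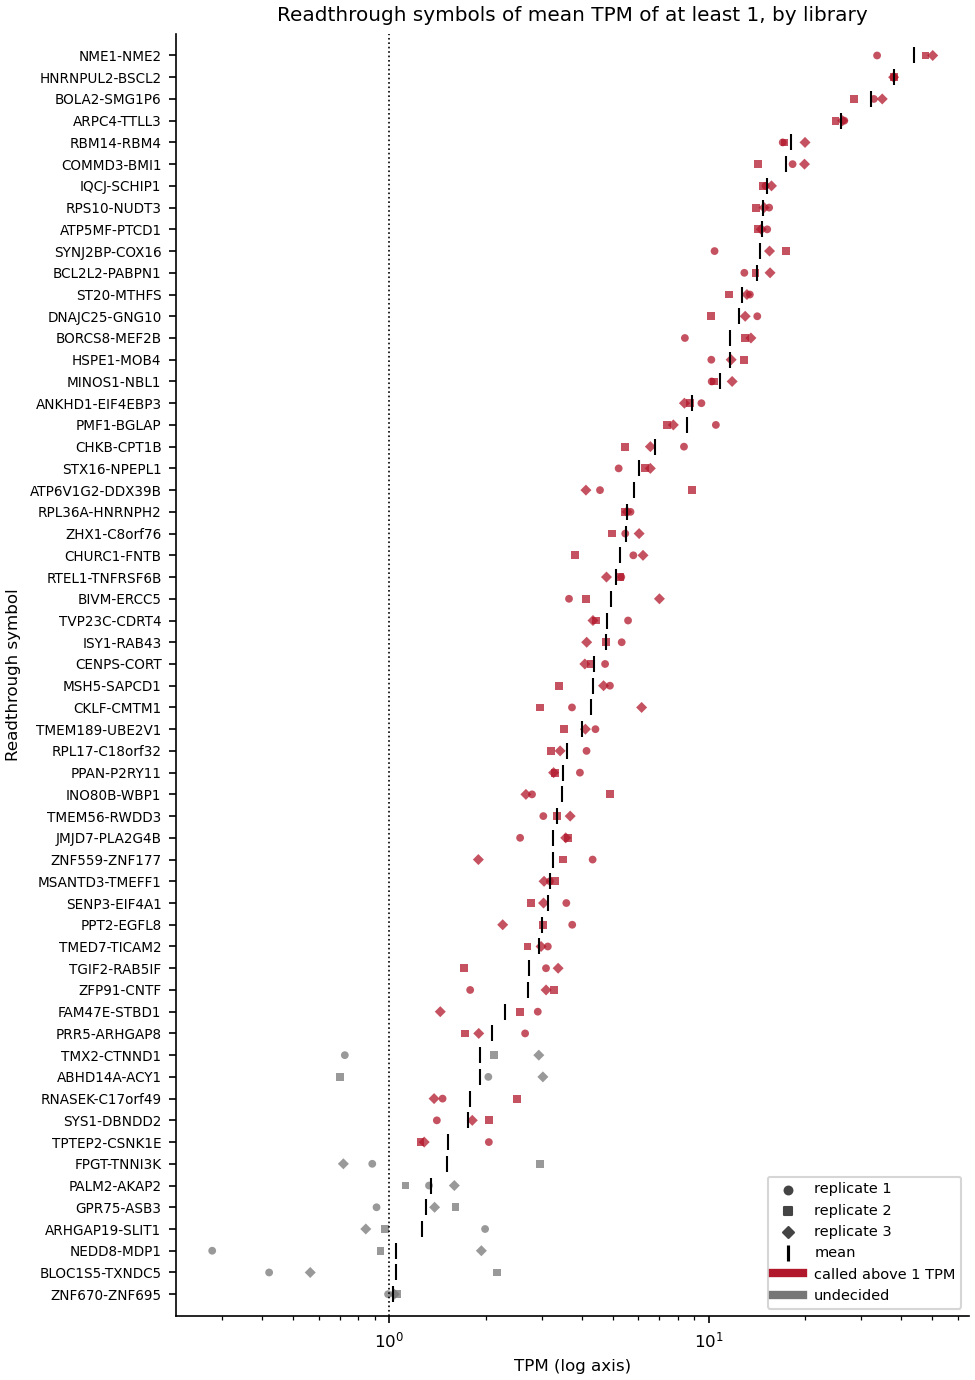
TPM of the 58 readthrough symbols with a mean of at least 1 TPM (log axis), with circles, squares and diamonds for replicates 1, 2 and 3, a black tick for the mean and a dotted line at 1 TPM. Red symbols were called above 1 TPM by limma and grey ones were undecided; HNRNPUL2-BSCL2 has 3 nearly coincident points near 38, while NEDD8-MDP1 runs from 0.279 to 1.94.

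The highest symbol was NME1-NME2, which joins the genes of nucleoside diphosphate kinases A and B, enzymes that balance nucleoside triphosphate pools. It measured 33.6, 47.6 and 50.2 TPM in replicates 1, 2 and 3. NME1 measured 730.3, 715 and 716 TPM and NME2 1629, 1638 and 1624 TPM in the same libraries. Replicate 1 gave the lowest readthrough value, and every readthrough value lay far below every value of either parent. On the log2(TPM + 0.1) scale, on which all differences between a symbol and its parents are given and which understates those of low genes, NME1-NME2 lay below NME1 (difference -4.06, SE 0.15, limma adjusted p = 0.000141) and below NME2 (difference -5.24, SE 0.14, limma adjusted p = 6.23e-05). The fits covered 27741 pairs of neighbouring symbols together with the readthrough pairs, and adjusted p-values are over all of them. In these, the first symbol was called below the second in 40.6% and above it in 41.4%. NME1-NME2 held 1.83% ± 0.373 (SD, n = 3) of the locus, meaning of the summed TPM of the readthrough symbol and its parents.

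RPS10-NUDT3 joins a protein of the small ribosomal subunit to a phosphohydrolase of diphosphoinositol polyphosphates, and its parents are very unequal. The readthrough symbol measured 15.4, 14.02 and 14.9 TPM, NUDT3 14.9, 14.5 and 14.8 TPM and RPS10 2577, 2582 and 2552 TPM. The readthrough and NUDT3 values overlapped, and their difference of 0.00431 (SE 0.042) did not pass the test (limma adjusted p = 0.929). Against RPS10 the readthrough symbol was lower by 7.43 on the log2 scale (SE 0.035, limma adjusted p = 3.76e-06) and held 0.569% ± 0.0282 of the locus.

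ATP5MF-PTCD1 also has unequal parents, with a subunit of mitochondrial ATP synthase upstream and a mitochondrial RNA-processing protein of the pentatricopeptide family downstream, whose annotated spans overlap. It measured 15.2, 14.2 and 14.6 TPM, against 932, 968 and 960.4 TPM for ATP5MF and 8.05, 11.6 and 9.01 TPM for PTCD1. It lay below ATP5MF (difference -6.01, SE 0.039, limma adjusted p = 3.76e-06) and above PTCD1 in each library (difference 0.63, SE 0.15, limma adjusted p = 0.0256). The call above PTCD1 did not hold without replicate 1 (limma adjusted p = 0.0881) or without replicate 3 (limma adjusted p = 0.119).

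SYNJ2BP-COX16 joins an outer-membrane protein of mitochondria to an assembly factor of cytochrome c oxidase. It measured 10.4, 17.4 and 15.5 TPM, SYNJ2BP 17.4, 20.4 and 20.6 TPM and COX16 73.9, 75.3 and 69.3 TPM. Replicate 1 was again the lowest of its 3 values, and its highest value, 17.41 TPM, lay just below the lowest of SYNJ2BP, 17.43 TPM. The symbol lay clearly below COX16 (difference -2.36, SE 0.18, limma adjusted p = 0.00107). The call below SYNJ2BP (difference -0.46, SE 0.12, limma adjusted p = 0.0356) was lost without replicate 1 (limma adjusted p = 0.0605) or without replicate 3 (limma adjusted p = 0.124).

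BCL2L2-PABPN1 joins BCL-W, a protein that inhibits apoptosis, to the nuclear poly(A)-binding protein, itself part of the machinery that makes RNA 3′ ends. It measured 12.9, 13.998 and 15.5 TPM, beside 18.3, 16.98 and 16.7 TPM for BCL2L2 and 211, 205 and 205 TPM for PABPN1. All 3 values lay below the 3 of BCL2L2, by 0.29 on average on the log2 scale (SE 0.098), which did not pass the test (limma adjusted p = 0.0641) but did with a pseudocount of 1 (limma adjusted p = 0.0456). The difference from PABPN1 was -3.87 (SE 0.074, limma adjusted p = 2.53e-05). Transcripts with exons of both parents held 64.7% of its TPM.

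ST20-MTHFS ends in the gene of methenyltetrahydrofolate synthetase, an enzyme of folate metabolism. It measured 13.4, 11.6 and 13.2 TPM, with ST20 at 12.02, 9.91 and 10.4 TPM and MTHFS at 49.4, 47.4 and 52.8 TPM. Within each library it lay a little above ST20, although the ranges overlapped (difference 0.24, SE 0.057, limma adjusted p = 0.0265), and this call was lost without replicate 1, 2 or 3 (limma adjusted p = 0.0589, 0.0998 and 0.0863). It lay below MTHFS (difference -1.96, SE 0.048, limma adjusted p = 4.78e-05).

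Among the 12 highest symbols, 2 had a main transcript annotated as an NMD target. HNRNPUL2-BSCL2, which joins a nuclear RNA-binding protein of the hnRNP U family to seipin, a protein of lipid droplet formation, has a single transcript. It measured 37.95, 38.01 and 37.8 TPM, a coefficient of variation (CV) of 0.219%. HNRNPUL2 measured 37.4, 35.8 and 37.4 TPM and BSCL2 15.02, 14.5 and 13.4 TPM. Every readthrough value lay above those of BSCL2 (difference 1.40, SE 0.049, limma adjusted p = 0.000119). All 3 also lay above the 3 of HNRNPUL2, but the difference of 0.04 (SE 0.032) did not pass the test (limma adjusted p = 0.301). The symbol held 42.6% ± 0.557 of its locus, while only 0.755% of its words were its own, those around the junction printed above.

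ARPC4-TTLL3 joins a subunit of the actin-nucleating Arp2/3 complex to a tubulin glycine ligase across a gap of 359 bases. It measured 26.5, 24.9 and 26.2 TPM, ARPC4 80.5, 87.4 and 85.6 TPM and TTLL3 33.6, 29.8 and 35.6 TPM. The readthrough values lay below all values of both parents, by 1.70 (SE 0.053, limma adjusted p = 8.99e-05) and 0.35 (SE 0.05, limma adjusted p = 0.00660) on the log2 scale. It held 18.1% ± 0.719 of the locus, 93.2% of it on the NMD transcript.

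In RBM14-RBM4 and COMMD3-BMI1 the main transcript was annotated as processed, meaning without a coding sequence. RBM14-RBM4 joins a pair of RNA-binding proteins and measured 17.02, 17.2 and 19.99 TPM, with RBM14 at 111, 103 and 109.7 TPM and RBM4 at 182, 181 and 179 TPM. It lay below both (log2 difference -2.58, SE 0.063, limma adjusted p = 4.66e-05 for RBM14; log2 difference -3.32, SE 0.067, limma adjusted p = 2.86e-05 for RBM4). COMMD3-BMI1, which runs into the gene of a Polycomb repressive complex 1 subunit, measured 18.3, 14.3 and 19.9 TPM. COMMD3 stood at 28.9, 35.99 and 35.9 TPM and BMI1 at 87.4, 73.9 and 88.7 TPM, so the readthrough values were lowest in all 3 libraries. The call below BMI1 (log2 difference -2.25, SE 0.055, limma adjusted p = 4.78e-05) held without each replicate, and that below COMMD3 (log2 difference -0.94, SE 0.16, limma adjusted p = 0.0105) was lost without replicate 3 (limma adjusted p = 0.0555).

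**Figure D2:**
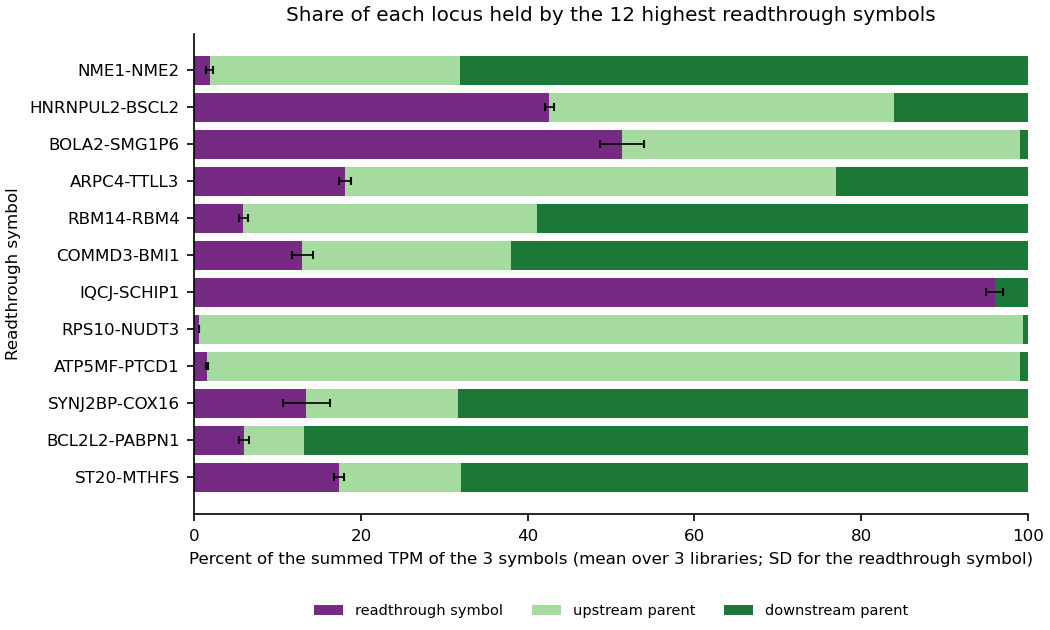
Percent of the summed TPM of each locus held by the readthrough symbol (purple, with the SD over 3 libraries), the upstream parent (light green) and the downstream parent (dark green), for the 12 symbols of highest mean TPM. The readthrough share runs from 0.569% in RPS10-NUDT3 to 96.1% in IQCJ-SCHIP1.

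Over the whole group, the usual arrangement was a readthrough symbol below both of its parents. Of the 98 symbols with both pairs tested, 50 were called below both parents by limma, or 51.0%, while 20.1% of 24921 symbols were called below both of their own neighbours in the same fit. At the other end, 18 were called above at least 1 parent, or 18.4%, against 57.9% of symbols above at least 1 neighbour; these 18 became 13 to 15 when 1 replicate was left out. A further 28 were below 1 parent and undecided against the other, and FAM47E-STBD1 and KLRC4-KLRK1 were undecided against both. The remaining 6 symbols (CCDC169-SOHLH2, CCL15-CCL14, CYP3A7-CYP3A51P, EPPIN-WFDC6, GIMAP1-GIMAP5 and NT5C1B-RDH14) had a pair in which both symbols were listed at 0. Against the upstream parent alone, 82 were lower, 7 higher and 12 undecided, and against the downstream parent 65 were lower, 12 higher and 22 undecided. Unlike parents, neighbours in the background comparison need not share exons with a symbol. They were also not matched to the parents in level. The median was 0.0994 TPM over all symbols of the table, against 21.3 TPM for upstream and 10.6 TPM for downstream parents. The part of parent level in these contrasts was not tested.

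**Figure D3:**
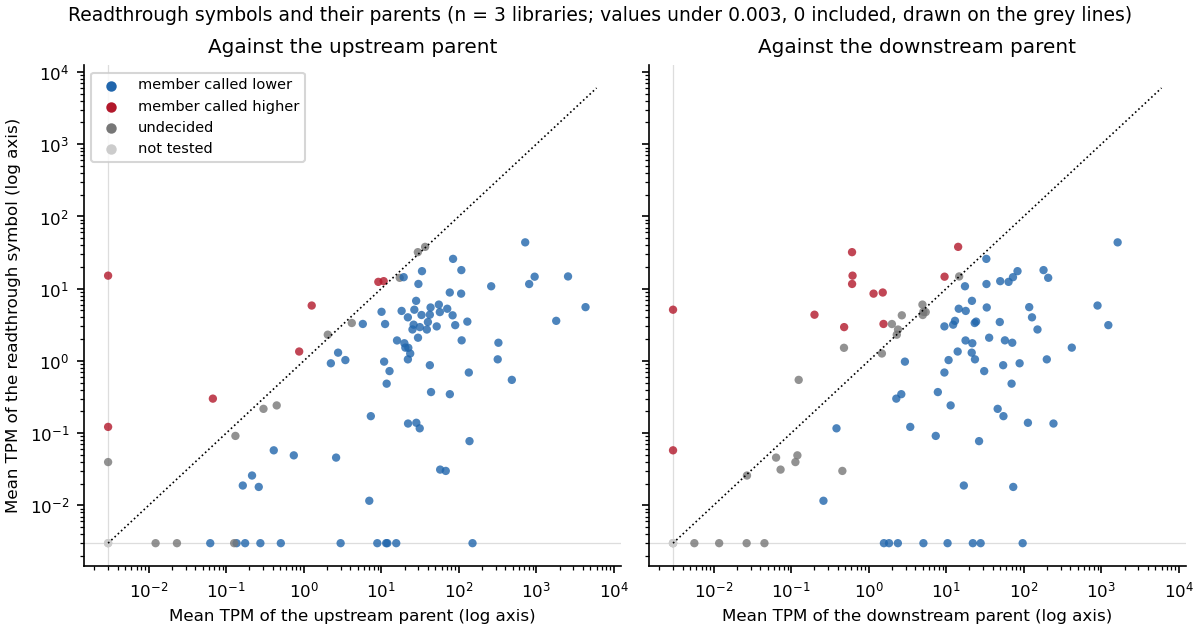
Mean TPM of each readthrough symbol (vertical) against its upstream parent (left) and downstream parent (right), both on log axes, with values at or near 0 drawn on the grey lines and the dotted line marking equal levels. Blue points were called lower than the parent (82 left, 65 right), red points higher (7 left, 12 right) and grey points undecided.

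Readthrough symbols held a small part of the TPM of most loci. Over symbols above 0, the median share of the locus was 4.25%, with quartiles of 0.584% and 9.75%, and the medians by library were 4.23%, 4.58% and 4.87%. The median symbol reached 8.74% of the mean level of its upstream parent and 16.5% of that of its downstream parent. The share exceeded 10% in 22 symbols, 25% in 6 and 50% in 2. The 6 were IQCJ-SCHIP1 (96.1% ± 1.03), BOLA2-SMG1P6 (51.3% ± 2.66), HNRNPUL2-BSCL2 (42.6% ± 0.557), FAM47E-STBD1 (34.4% ± 9.37), JMJD7-PLA2G4B (31.04% ± 7.51) and BORCS8-MEF2B (27.3% ± 5.97). These are shares of the symbol, not of RNA shown to join the parents. Only 30.4% of the IQCJ-SCHIP1 TPM lay on transcripts with exons of both parents. For BOLA2-SMG1P6 that value was 100%, with 0% on a direct junction between the parents.

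Expression of the parents and of the readthrough symbol went together in part. Where both parents were called above 1 TPM (61 symbols), 39 readthrough symbols were called above it, 6 below and 13 undecided, and 3 were listed at 0. With 1 parent above 1 TPM (32 symbols), 9 were above, 12 below and 8 at 0, and FPGT-TNNI3K, NDUFC2-KCTD14 and PALM2-AKAP2 were undecided. With 0 parents above (11 symbols), IQCJ-SCHIP1 alone was above, LYNX1-SLURP2, TNFSF12-TNFSF13, KLRC4-KLRK1 and SAA2-SAA4 were below and 6 were at 0. Across the 87 symbols above 0, the Spearman correlation of the mean level was 0.41 with the upstream parent, 0.25 with the downstream parent and 0.42 with the lower of both. These are correlations across symbols, described without a test, and the symbols share their libraries and part of their reads with the parents.

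Of the 18 symbols above a parent, 12 were above the downstream and 7 above the upstream parent, with IQCJ-SCHIP1 in both counts. BORCS8-MEF2B starts in a gene of lysosome positioning and ends in that of a MEF2 transcription factor. It measured 8.41, 12.95 and 13.5 TPM, BORCS8 31.2, 32.1 and 27.2 TPM and MEF2B 0.5002, 0.825 and 0.511 TPM. The readthrough values lay between those of the parents in every library, below BORCS8 (log2 difference -1.40, SE 0.21, limma adjusted p = 0.00697) and above MEF2B (log2 difference 4.04, SE 0.18, limma adjusted p = 0.000228).

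PMF1-BGLAP joins a kinetochore protein of the MIS12 complex to osteocalcin, a protein of bone matrix. It measured 10.5, 7.37 and 7.74 TPM, PMF1 105, 108 and 109.6 TPM and BGLAP 1.37, 1.26 and 0.843 TPM. CENPS-CORT joins another centromere protein to cortistatin, a neuropeptide, and measured 4.73, 4.27 and 4.09 TPM, against 39.3, 44.7 and 43.2 TPM for CENPS and 0.249, 0.182 and 0.170 TPM for CORT. In both loci all readthrough values lay between those of the parents. The differences from the downstream parent were 2.79 (SE 0.15, limma adjusted p = 0.000368) for PMF1-BGLAP and 3.90 (SE 0.072, limma adjusted p = 2.32e-05) for CENPS-CORT, and those from the upstream parent -3.65 (limma adjusted p = 0.000155) and -3.25 (limma adjusted p = 7.6e-05).

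ANKHD1-EIF4EBP3 runs from a large ankyrin-repeat protein into a repressor of translation initiation. It measured 9.47, 8.72 and 8.38 TPM, ANKHD1 75.4, 78.3 and 76.2 TPM and EIF4EBP3 1.38, 1.65 and 1.53 TPM, and was above EIF4EBP3 in every library (log2 difference 2.47, SE 0.10, limma adjusted p = 0.000184). Transcripts with exons of both parents held 100% of the ANKHD1-EIF4EBP3 TPM, and those with a direct junction between the parents held 6.05%. TMED7-TICAM2 joins a protein of the early secretory pathway to an adaptor of Toll-like receptor 4. It measured 3.13, 2.70 and 2.98 TPM, TMED7 32.97, 30.5 and 30.96 TPM and TICAM2 0.747, 0.703 and 0 TPM, so that TICAM2 was listed at 0 in 1 library. Its call above TICAM2 (log2 difference 2.89, SE 0.81, limma adjusted p = 0.0412) was lost with a pseudocount of 0.01 (limma adjusted p = 0.117) and without replicate 1 or 2 (limma adjusted p = 0.101 and 0.0860).

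RTEL1-TNFRSF6B joins a helicase of telomere maintenance to decoy receptor 3, a soluble receptor of the tumour necrosis factor family. It measured 5.32, 5.26 and 4.78 TPM, RTEL1 26.96, 27.3 and 25.98 TPM, and TNFRSF6B was listed at 0 in all 3 libraries. The symbol was called below RTEL1 (log2 difference -2.37, SE 0.045, limma adjusted p = 2.47e-05) and above TNFRSF6B (limma adjusted p = 9.5e-06), for which no fold is given. Its main transcript, with 69.8% of its TPM, is annotated as retaining an intron, and transcripts with a direct junction between the parents held 6.49%.

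ATP6V1G2-DDX39B had the opposite arrangement, with a proton pump subunit of low level upstream and an abundant RNA helicase of splicing and mRNA export downstream. It measured 4.56, 8.85 and 4.12 TPM, ATP6V1G2 1.14, 1.68 and 0.986 TPM and DDX39B 902, 878 and 911 TPM. Replicate 2 was high for both the readthrough symbol and ATP6V1G2, and the readthrough symbol was above ATP6V1G2 in each library (log2 difference 2.07, SE 0.12, limma adjusted p = 0.000455) and below DDX39B (log2 difference -7.32, SE 0.28, limma adjusted p = 0.000153). All of its TPM lay on an NMD transcript.

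IQCJ-SCHIP1 was the only symbol called above both parents. Its product belongs to a family of adaptor proteins that bind ankyrins at axon initial segments and nodes of Ranvier in neurons. It measured 15.05, 14.7 and 15.7 TPM, SCHIP1 0.540, 0.795 and 0.527 TPM, and IQCJ was listed at 0 in all 3 libraries. The groups did not overlap (log2 difference 4.42, SE 0.16, limma adjusted p = 0.000124 for SCHIP1, and limma adjusted p = 4.39e-06 for IQCJ, without a fold). The annotation gives this symbol 14 transcripts, of which 8 were above 0. Transcripts with exons of both parents held 30.4% ± 2.19 of its TPM, those with exons of SCHIP1 but not of IQCJ 49.3% ± 3.25, and those with exons of neither 20.3% ± 1.37 (SD, n = 3). No transcript of this symbol that was above 0 joins an exon of IQCJ directly to an exon of SCHIP1.

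BOLA2-SMG1P6 lies among near-identical copies on chromosome 16, so its level is uncertain. It joins a protein of iron-sulfur cluster delivery to a pseudogene of SMG1, the kinase that starts NMD. It measured 32.8, 28.5 and 34.9 TPM, BOLA2 30.8, 29.2 and 29.1 TPM and SMG1P6 0.743, 0.613 and 0.477 TPM. The difference of 0.11 from BOLA2 (SE 0.074) did not pass the test (limma adjusted p = 0.272), and the values lay above SMG1P6 (log2 difference 5.51, SE 0.17, limma adjusted p = 8.4e-05). Of the words of its main transcript, 95.0% also occur in transcripts of symbols other than its parents.

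Of the other 8 symbols above a parent, ATP5MF-PTCD1 and ST20-MTHFS are given above and ZNF625-ZNF20 below with the symbols near 1 TPM. The remaining 5 are named here after their values were seen. DNAJC25-GNG10, which ends in a G protein gamma subunit, measured 14.2, 10.1 and 12.99 TPM and was above DNAJC25 at 9.18 ± 0.790 TPM (log2 difference 0.42, SE 0.082, limma adjusted p = 0.0152). JMJD7-PLA2G4B (3.25 ± 0.595 TPM) was above the phospholipase PLA2G4B at 1.56 ± 0.445 TPM (limma adjusted p = 0.0397), and PALM2-AKAP2 (1.35 ± 0.237 TPM) above PALM2 at 0.875 ± 0.0223 TPM (limma adjusted p = 0.0163). LY6G6F-LY6G6D and LYNX1-SLURP2 were above a parent listed at 0 with means of 0.122 and 0.0579 TPM of their own (limma adjusted p = 0.00216 and 0.0263), and both were called below 1 TPM.

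The readthrough symbols differed from their parents in the kind of transcript that carried their TPM. Among transcripts matched to GENCODE 29, those annotated as NMD targets held 29.8% ± 0.236 (SD, n = 3) of the readthrough TPM, 1.42% ± 0.0426 of the parents' TPM and 3.72% ± 0.0159 of the TPM of all symbols. Protein-coding transcripts held 58.0% ± 1.01 of the readthrough TPM, 91.9% of the parents' and 83.2% of all TPM. The 3 libraries did not overlap between readthrough symbols and parents in either class. Processed transcripts held 8.67% ± 0.705 and transcripts with a retained intron 3.62% ± 0.0945 of the readthrough TPM. The annotation itself differs in the same way: NMD targets are 142 of the 338 matched readthrough transcripts, or 42.0%, against 10.3% of the parents' transcripts and 8.89% of all. HNRNPUL2-BSCL2 and ARPC4-TTLL3 are the highest symbols in the NMD class. Their main transcripts held 37.9 and 24.1 TPM of the 137 TPM of that class, so a large part of it rests on these symbols.

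**Figure D4:**
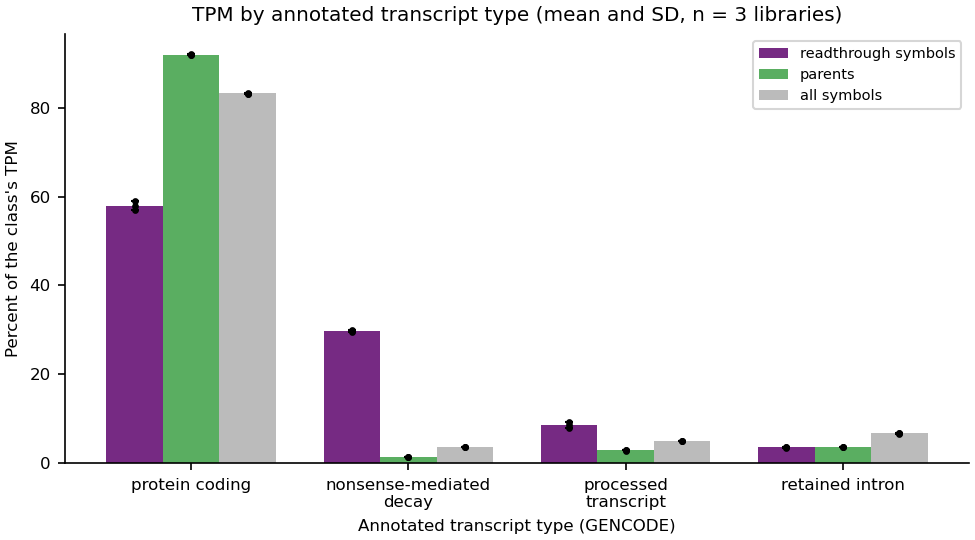
Percent of TPM on transcripts of each annotated GENCODE type, for readthrough symbols (purple), their parents (green) and all symbols (grey), as the mean over 3 libraries with SD bars and a point for each library. The NMD class holds 29.8% of the readthrough TPM and 1.42% of the parents'.

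By symbol, the most abundant transcript was protein-coding in 45 of the readthrough symbols above 0, an NMD target in 28, a processed transcript in 7 and one with a retained intron in 5 (ABHD14A-ACY1, JMJD7-PLA2G4B, RAB4B-EGLN2, RTEL1-TNFRSF6B and STX16-NPEPL1), and in 2 it had no match in GENCODE 29 (MSH5-SAPCD1 and LY6G6F-LY6G6D). Of the 49 called above 1 TPM, 31 had a protein-coding and 10 an NMD main transcript. Transcripts with exons of both parents held 95.5% ± 0.367 of all readthrough TPM. Of the 58 symbols of at least 1 TPM, 52 had at least 99% of their TPM on such transcripts, and in 44 a direct junction between the parents' exons accounted for over 50%. BIVM-ERCC5, at 4.92 ± 1.81 TPM, had no words of its own in its main transcript: each also occurs in transcripts of its parents. All 4920 coding bases of that transcript are also coding in ERCC5, and 1450 of them in BIVM. Transcripts listed under ERCC5 thus hold coding bases of BIVM, so the level of a parent may itself include RNA spanning both genes. How far this holds here or where other parents overlap was not tested.

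The coding main transcripts differed in the reading frames they keep. In 36 of the 45, annotated coding bases of both parents were included. All shared bases were in frame with both parents in 24 of these, and in the other 12 they were in frame with the upstream parent and in 0 bases with the downstream parent. No minimum number of shared bases was set, and the 24 include PALM2-AKAP2, with 23 bases of AKAP2. They also include BIVM-ERCC5, whose coding bases are all coding in ERCC5 as annotated. The NME1-NME2 coding sequence of 801 bases takes 341 bases in frame from NME1 and 456 from NME2. That of RPS10-NUDT3, with 873 bases, takes 456 from RPS10 and 417 from NUDT3, and that of SYNJ2BP-COX16, with 546 bases, takes 297 and 249. BCL2L2-PABPN1 takes 432 bases from BCL2L2 and 567 from PABPN1, and HSPE1-MOB4, which starts in the mitochondrial chaperonin HSP10 and measured 10.2, 12.9 and 11.7 TPM, takes 168 from HSPE1 and 615 from MOB4.

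In the 12 others the shared coding bases of the downstream gene are read in a frame other than that of its own protein. These bases number from 1 in RPL36A-HNRNPH2 to 219 in PPAN-P2RY11, so that some cases rest on very few. PMF1-BGLAP takes 564 coding bases in frame from PMF1 and 69 from BGLAP in another frame, and CENPS-CORT takes 209 and 22. ANKHD1-EIF4EBP3 keeps 7569 bases of the ANKHD1 frame and reads 172 bases of EIF4EBP3 in another frame. RPL17-C18orf32 (3.59 ± 0.488 TPM) keeps 393 bases of the ribosomal protein, and PPAN-P2RY11 (3.50 ± 0.386 TPM), which runs from a nucleolar ribosome assembly factor into a purinergic receptor, keeps 1341 bases of PPAN with 219 bases of P2RY11 out of frame. The main coding transcripts of BOLA2-SMG1P6, CKLF-CMTM1, TMED7-TICAM2 and TVP23C-CDRT4 held no coding bases of the downstream parent. Those of GPR75-ASB3, IQCJ-SCHIP1, ST20-MTHFS, TPTEP2-CSNK1E and ZHX1-C8orf76 held none of the upstream parent, so that the frame kept was that of the downstream gene. A main transcript need not hold most of its symbol's TPM, and that of IQCJ-SCHIP1 held 24.4%. The reading frames are properties of the annotation, and no protein was measured.

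The last 50 bases of main coding transcripts were searched for AATAAA on the transcript strand. It was present in 51 of 83 upstream parents (61.4%), 45 of 81 downstream parents (55.6%) and 20 of 46 readthrough symbols (43.5%), and in 8384 of 14401 symbols in all (58.2%). ATTAAA without AATAAA was present in 7, 11 and 5 of these, respectively, and in 1962 (13.6%) of all. The upstream parents' share lay near that of all symbols. A match does not show that a site is used, and its absence says only that these letters are not in this window.

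Genes of 3′ end processing and of NMD were expressed in all 3 libraries. Of all symbols tested, 58.5% were called above 1 TPM. The lists and markers of this paragraph were chosen with earlier results of these data known. Of 24 genes of 3′ end processing and termination, 24 were called above 1 TPM, with a median of 60.97 TPM: among them CPSF3, the endonuclease, at 72.6 ± 2.34 TPM, CSTF2, which binds downstream of the cut, at 65.8 ± 0.985 TPM, PCF11, a termination factor, at 31.4 ± 0.953 TPM and XRN2, the exonuclease of termination, at 74.1 ± 0.828 TPM. PABPN1, also a parent, stood at 207 ± 3.52 TPM. Of 14 genes of NMD, 14 were called above 1 TPM, with a median of 57.9 TPM, including the helicase UPF1 at 68.4 ± 2.81 TPM and the kinase SMG1 at 44.8 ± 2.06 TPM. Of the markers known from HEK293T cells, such as VIM and NEFM, 8 of 8 were called above 1 TPM, and 0 of 10 markers of blood, endothelium, liver, skin and muscle were: 5 were below, ACTA1 was undecided and CD3E, HBB, KRT5 and MYH7 were listed at 0. Because of how the markers were chosen, they give no independent check of the label.

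The readthrough levels had a wider median spread between libraries than those of other symbols. For the 58 of at least 1 TPM, the median CV was 17.1%, against 4.54% for all 13475 such symbols and 4.69% for 156 of the parents, and 25 of the 58 exceeded 20%. Between 1 and 10 TPM the medians were 20.8% for 42 readthrough symbols and 10.6% for 4419 symbols. Symbols were compared at like TPM and not at like numbers of reads. The parts of shared sequence and of low read numbers in this spread were not tested.

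Among the readthrough symbols of at least 1 TPM, the widest spread was in BLOC1S5-TXNDC5, which joins a subunit of the BLOC-1 complex of lysosome-related organelles to a protein disulfide isomerase. It measured 0.420, 2.17 and 0.565 TPM, with replicate 2 high, while BLOC1S5 stayed at 23.3, 20.2 and 22.7 TPM and TXNDC5 at 199, 199 and 198 TPM. FPGT-TNNI3K, which runs from an enzyme of fucose salvage into a cardiac kinase, also had its high value in replicate 2, at 0.884, 2.96 and 0.718 TPM, while FPGT stood at 22.4 ± 1.59 TPM and TNNI3K at 0.425, 0.492 and 0.527 TPM. In neither did the level differ from 1 TPM by the test (limma adjusted p = 0.585 and 0.546), and without replicate 2 BLOC1S5-TXNDC5 was called below 1 TPM (limma adjusted p = 0.0347). Both were below the upstream parent (log2 difference -4.59, SE 0.57, limma adjusted p = 0.00424; log2 difference -4.06, SE 0.50, limma adjusted p = 0.00415). Few reads lay behind these levels: the estimated reads in replicate 1 were 28.1 for BLOC1S5-TXNDC5 and 22.4 for FPGT-TNNI3K.

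NEDD8-MDP1 begins in the gene of a ubiquitin-like modifier of cullins and measured 0.279, 0.938 and 1.94 TPM, against 313, 324 and 318 TPM for NEDD8 and 24.5, 22.7 and 23.5 TPM for MDP1. ABHD14A-ACY1, which ends in the gene of aminoacylase 1 and has 29 transcripts, measured 2.04, 0.700 and 3.02 TPM, with replicate 2 low. ABHD14A stood at 16.3, 13.8 and 17.95 TPM and ACY1 at 16.8, 18.4 and 18.2 TPM. Both readthrough symbols were undecided against 1 TPM (limma adjusted p = 0.616 and 0.193), although ABHD14A-ACY1 was called above it without replicate 2 (limma adjusted p = 0.0143). Both were below both parents, with limma adjusted p between 0.000671 for NEDD8-MDP1 against NEDD8 and 0.00624 for ABHD14A-ACY1 against ACY1.

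Symbols called nearest to 1 TPM show what the test resolved. Just above it were TPTEP2-CSNK1E, RNASEK-C17orf49 and SYS1-DBNDD2. TPTEP2-CSNK1E runs from a pseudogene into casein kinase 1 epsilon and measured 2.05, 1.25 and 1.28 TPM (limma adjusted p = 0.0412), a call that was lost without replicate 1, 2 or 3 (limma adjusted p = 0.0876, 0.0752 and 0.0776). SYS1-DBNDD2, which starts in a gene of Golgi trafficking, measured 1.41, 2.05 and 1.82 TPM (limma adjusted p = 0.00622). RNASEK-C17orf49 measured 1.47, 2.51 and 1.38 TPM (limma adjusted p = 0.0223), and lost its call when replicate 1 was left out (limma adjusted p = 0.0750). All 3 were below both parents, with limma adjusted p of at most 0.000162.

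Just below 1 TPM were SPECC1L-ADORA2A, TSNAX-DISC1 and ZNF625-ZNF20. SPECC1L-ADORA2A, which ends in the gene of an adenosine receptor, measured 0.596, 0.325 and 0.191 TPM (limma adjusted p = 0.0166), and lost its call when replicate 2 (limma adjusted p = 0.0833) or replicate 3 was left out (limma adjusted p = 0.0509). TSNAX-DISC1, which runs into a scaffold protein of neuronal development, measured 0.227, 0.334 and 0.478 TPM (limma adjusted p = 0.00727). Both were below both parents, which were SPECC1L at 43.9 ± 0.805 and ADORA2A at 7.82 ± 0.491 TPM, and TSNAX at 76.8 ± 0.555 and DISC1 at 2.64 ± 0.0343 TPM (limma adjusted p between 5.14e-05 and 0.00104). ZNF625-ZNF20 measured 0.177, 0.323 and 0.403 TPM (limma adjusted p = 0.00656), between ZNF625 at 0.0642, 0.0810 and 0.0569 TPM and ZNF20 at 2.92, 1.80 and 2.11 TPM. It was above ZNF625 (log2 difference 1.22, SE 0.23, limma adjusted p = 0.0135), a call lost without replicate 2 (limma adjusted p = 0.0745), and below ZNF20 (log2 difference -2.58, SE 0.35, limma adjusted p = 0.00532).

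Expressed parents did not always come with a readthrough level above 0. Of the 17 symbols listed at 0, 3 had both parents above 1 TPM. EEF1E1-BLOC1S5 starts in a component of the aminoacyl-tRNA synthetase complex; EEF1E1 measured 149.8, 151 and 151 TPM and BLOC1S5 23.3, 20.2 and 22.7 TPM. TRIM39-RPP21 joins a ubiquitin ligase to a subunit of ribonuclease P, with TRIM39 at 15.7, 13.8 and 17.4 TPM and RPP21 at 98.4, 96.6 and 96.2 TPM. The third was ZNF816-ZNF321P, a zinc finger gene followed by a pseudogene, with ZNF816 at 3.03, 3.15 and 2.81 TPM and ZNF321P at 2.66, 2.01 and 2.48 TPM. BLOC1S5 is the downstream parent of EEF1E1-BLOC1S5 and the upstream parent of BLOC1S5-TXNDC5, and only the second of these was above 0.

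Among the others at 0, INMT-MINDY4 ends in a deubiquitinase at 5.41, 4.54 and 5.32 TPM, and FXYD6-FXYD2 begins in a regulator of the sodium pump at 10.8, 12.8 and 12.4 TPM. INS-IGF2 joins insulin to insulin-like growth factor 2, where INS was listed at 0 in replicates 1 and 2 and at 0.380 TPM in replicate 3, and IGF2 measured 1.41, 2.32 and 1.77 TPM. The other 11 at 0 were APOC4-APOC2, GIMAP1-GIMAP5, HSPB2-C11orf52, EEF1AKMT4-ECE2, EPPIN-WFDC6, CYP3A7-CYP3A51P, BORCS7-ASMT, CCDC169-SOHLH2, CCL15-CCL14, NT5C1B-RDH14 and LY75-CD302. A further 11 symbols were above 0 in only 1 library and 5 in 2 libraries, all but NDUFC2-KCTD14 and RNF103-CHMP3 called below 1 TPM. A listing at 0 is an estimate and does not show that the RNA was absent. The 39 symbols below 1 TPM or at 0 had a median of 3.40% of their own words, and the 49 above 1 TPM 7.70%, while across the 87 symbols above 0 the Spearman correlation of level with that percentage was 0.13.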

How the data were processed

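The 3 libraries of untreated HEK293T cells formed 1 group. Transcripts were quantified with kallisto and hg38 is the build named, per the submitters' processing notes; for the version, options, strand setting and transcript release, nothing is given in the sources used here. TPM per transcript and library was deposited as scaled by the authors within each library, with their mean. It also holds 1 column of estimated counts, which names no library, per the file headers: converted to TPM, it differs from replicate 1 by at most 1.08e-05 of a value, so no count model was fitted, and the depth of replicates 2 and 3 is unknown.

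TPM was summed by symbol. Levels were tested with limma 3.58.1 in R 4.3.3 on log2(TPM + 0.01) against 1 TPM, over 21990 symbols above 0 in at least 1 library. For each symbol and parent, the difference in log2(TPM + 0.1) within each library was tested with limma, in a fit that also held 27741 pairs of neighbouring symbols; both fits used a mean-variance trend, two-sided tests and Benjamini-Hochberg adjusted p under 0.05. Both were tested on simulated data, in which no value was 0 and symbols shared no reads, so the effect of these features on the calls was not tested. Transcripts were matched by identifier to GENCODE release 29, which may not be the authors' release, in its annotation of the primary assembly (without alternate loci). Of 371 readthrough transcripts 338 matched, and the 33 others belong to MSH5-SAPCD1, NEDD8-MDP1, TMEM256-PLSCR3, CORO7-PAM16, CCL15-CCL14 and LY6G6F-LY6G6D. Whether these 33 come from another release or from alternate loci was not tested. Words were taken from the transcript strand.

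The readthrough symbols, gene lists and tests were chosen with earlier results of these data known. Symbols named in full are the 12 of highest mean TPM, up to 10 with the largest difference above a parent, the 4 of highest CV, up to 6 at 0 with the highest lower parent, and the 3 called nearest to 1 TPM on each side. Other pseudocounts, levels, scalings and filters, the most abundant transcript alone and leaving out each replicate were also tried.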

Additional observations from a re-analysis of the deposited data

How the results depend on the processing

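No paired analysis was possible because the libraries form 1 group, so that no replicate numbers are shared between groups. The count of readthrough symbols called above 1 TPM was 49, and 41 to 58 over all alternatives. The count below 1 TPM was 22 and changed to 10 when only symbols with a mean of at least 0.1 TPM were tested, which leaves fewer symbols to test, and to 13 when any 1 replicate was left out, which leaves fewer samples. With levels of 0.5 and 2 TPM it was 16 and 30. The count below both parents was 50, with 45 to 51 over the alternatives, and the count above at least 1 parent was 18, with 13 to 19. The median share of the locus was 4.25%, changed to 5.26% with the most abundant transcript alone, for which the cause was not tested, and ranged from 4.12% to 4.45% without 1 replicate. For the named symbols, 335 of the differences from a parent kept their direction and call under an alternative, 12 lost the call and 1 gained it; for levels these numbers were 134, 6 and 2. The sign changed, with no call in either fit, in 4 values for which the cause was not tested. With 1 replicate left out, the log2 difference from 1 TPM ranged from -1.02 to 0.15 in BLOC1S5-TXNDC5 (-0.31 with all replicates; positive without replicate 1), from -0.95 to 0.43 in NEDD8-MDP1 (-0.32; positive without replicate 1) and from -0.32 to 0.69 in FPGT-TNNI3K (0.30; negative without replicate 2). The log2 difference of RPS10-NUDT3 from NUDT3 ranged from -0.019 to 0.030 (0.0043; negative without replicate 1). TPM keeps no depth, so the counting error of the lowest levels is not known in replicates 2 and 3.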
